A study of Mus musculus with 2 samples.

Results

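The miRNA genes Mir764, Mir1912, Mir1264, Mir1298 and Mir448, lie in introns of Htr2c, the X-linked gene of a serotonin receptor, and they are 5 of the 1973 miRNA genes counted in newborn mouse hindbrain. They were picked by their annotated place inside Htr2c, with their levels in these same libraries already known, so those levels are given as a description and no test is made on them. MicroRNA-seq was done on RNA of under 30 nucleotides from the hindbrain of B6NCrl mice at age 0 day, with no treatment or engineered allele in the labels. The 2 libraries form 1 group, a single hindbrain of pup 3 (replicate 2) and a single hindbrain of pup 1 (replicate 1), and the labels record no sex and give both pups the same donor identifier. No second condition is present, so what could be compared is gene with gene and pup with pup, and a mean ± SD covers 2 libraries only.

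Htr2c encodes a receptor that answers serotonin by coupling to Gq and phospholipase C, and in the brain it is known for its abundance in the choroid plexus and for its place on many neurons. Many intronic miRNAs are cut as hairpins from the host's primary transcript by Drosha and then trimmed by Dicer to a short mature strand. Only miRNA genes were counted here, so the level of the Htr2c transcript itself is not known. A mature miRNA finds its targets mainly through its seed, the short stretch that starts at its second base. Levels are in CPM, reads on the gene's own strand per 1000000 such reads over all miRNA genes of the library. Reads from both arms of a hairpin are counted together.

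The mature sequences are shown first because they set what each gene could target and how far the members resemble each other. They are RefSeq's, on GRCm38.p6, written 5′ to 3′ with the seed (bases 2 to 8) in capitals, and run along the host in its sense direction. RefSeq's table held a mature sequence for all 5 members and a hairpin for 4 of them, all but Mir1264.
mmu-miR-764-5p: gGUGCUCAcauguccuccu
mmu-miR-764-3p: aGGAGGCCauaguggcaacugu
mmu-miR-1912-3p: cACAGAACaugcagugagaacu
mmu-miR-1264-3p: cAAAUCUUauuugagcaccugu
mmu-miR-1298-5p: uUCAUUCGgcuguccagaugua
mmu-miR-1298-3p: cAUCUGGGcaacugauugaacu
mmu-miR-448-5p: gAACAUCCugcauagugcugcc
mmu-miR-448-3p: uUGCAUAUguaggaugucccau

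The 8 listed strands, of which Mir1912 and Mir1264 give the 3p strand alone, had 8 different seeds. They were 19 to 22 nucleotides long. Because the mature strands are so close in length, counts were not divided by length. The 4 hairpins with a sequence shared at most 8 bases in a row with each other over 6 pairs. Against the 1004 other mouse hairpins in the table, the longest shared run was 13 bases for Mir764 and Mir448, 12 for Mir1298 and 10 for Mir1912. Hairpin GC content was 52.7% for Mir448, 46.3% for Mir764, 44.9% for Mir1298 and 37.9% for Mir1912.

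Along Htr2c (ENSMUSG00000041380.13, GRCm38 chromosome X, 146962513 to 147197277, plus strand) the members fall into 2 long introns, and all lie on the plus strand. Mir764 is at 147002259 to 147002366, Mir1912 at 147009441 to 147009527, Mir1264 at 147010601 to 147010686 and Mir1298 at 147064905 to 147065002. In transcript Htr2c-201 these 4 share intron 2, which is 90.8 kb long. Mir448, at 147158210 to 147158321, lies alone among the members in intron 4, which is 93.5 kb long. No annotated exon of the 7 Htr2c transcripts overlaps a member. Mir1298 and Mir448 lie near the 3′ ends of their introns, 7.4 kb and 11.2 kb before the next exon, whereas the first 3 members lie 61.7 kb or more before it. Mir1912 and Mir1264 are the closest neighbours, 1073 bp apart.

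**Figure D1:**
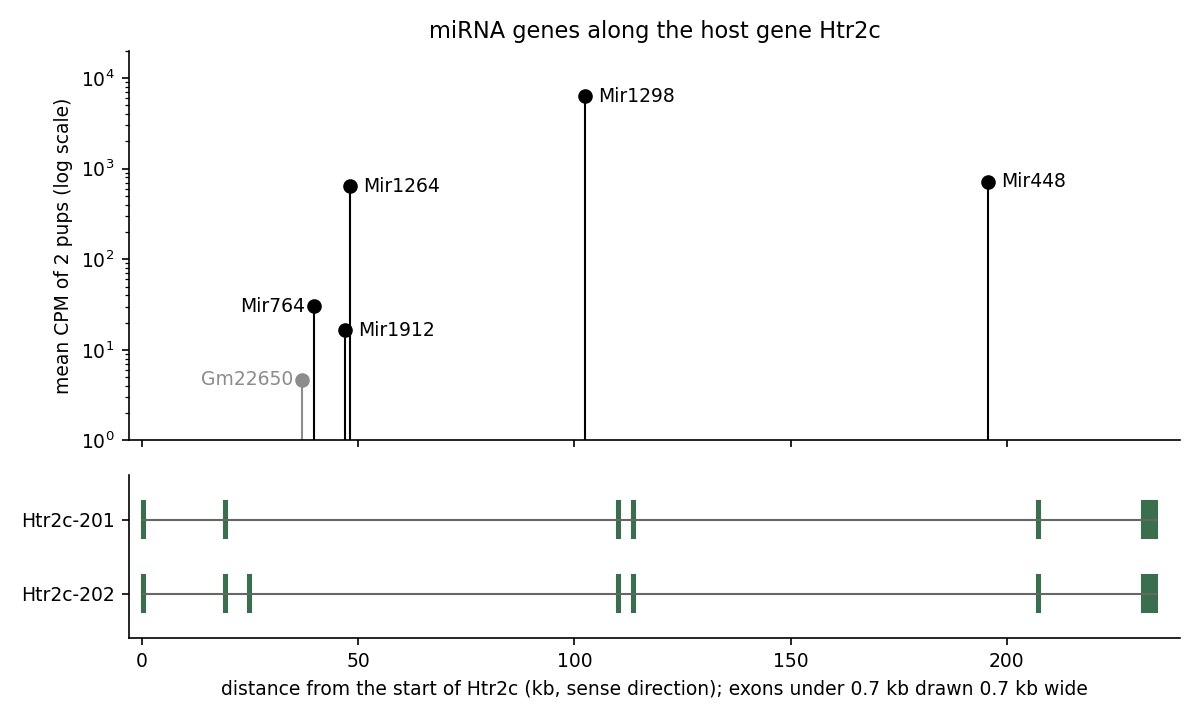
Mean CPM of 2 pups (log axis) for each miRNA gene against its distance in kb from the start of Htr2c, above the exons of transcripts Htr2c-201 and Htr2c-202 (green boxes). Members are black and the predicted gene Gm22650 is grey; Mir1298, 102.4 kb into the host, stands highest at 6271 CPM.

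All 5 members were detected, taking detection as 2 CPM in both pups, in a table where 20.6% of the miRNA genes reached that level. Among the 658 genes in introns of protein-coding hosts it was 25.4%. Of the 1051 genes with a Mir name, which all members carry, 403 were detected, a larger share than over the whole table. The members spanned 383-fold in mean level, and Mir1298 alone supplied most of the reads. The order was the same in both pups, with Mir1298 highest, Mir448 and Mir1264 close together in the middle, and Mir764 and Mir1912 low.

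Mir1298 had 6980 CPM in pup 3 (43544 reads, exact Clopper-Pearson 95% interval 6915 to 7045) and 5562 CPM in pup 1 (27290 reads, 5497 to 5629). Its mean was 6271 ± 1002 CPM (SD, n = 2), which ranked it 35 of 1973 genes, 12 among the 658 genes in introns of protein-coding hosts and 2 among the 120 genes of chromosome X. Pup 3 was the higher of the pups, and the counting intervals did not overlap. These intervals cover counting error only and take each read as a separate molecule.

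Mir448 had 719 CPM in pup 3 (4488 reads, interval 698.5 to 741) and 706 CPM in pup 1 (3463 reads, 683 to 729.8). In mouse adipocyte precursors this miRNA is reported to repress Klf5. The mean of Mir448 was 713 ± 9.57 CPM, rank 124 of all genes. The counting intervals of the pups overlapped in CPM.

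Mir1264 followed at 628 CPM in pup 3 (3917 reads, 608 to 648) and 645 CPM in pup 1 (3164 reads, 623 to 668). Its mean was 636 ± 12.1 CPM, rank 130, and the counting intervals of the pups overlapped. The gap between Mir448 and Mir1264 was small but present in both libraries, at 1.15-fold in pup 3 (exact interval of the ratio of counts 1.10 to 1.20) and 1.09-fold in pup 1 (1.04 to 1.15). In CPM their means lay further apart than either SD. With DESeq2 size factors, another scaling of the libraries, they did not, at 715 ± 89.6 for Mir448 and 638 ± 59.4 for Mir1264.

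Mir764, whose 5p strand is reported to favour osteoblast differentiation in mouse precursor cells, had 25.6 CPM in pup 3 (160 reads, 21.8 to 29.9) and 35.1 CPM in pup 1 (172 reads, 30.0 to 40.7). Mir1912 had 19.1 CPM in pup 3 (119 reads, 15.8 to 22.8) and 13.7 CPM in pup 1 (67 reads, 10.6 to 17.3). Mean levels were 30.4 ± 6.66 CPM for Mir764 and 16.4 ± 3.83 CPM for Mir1912, at ranks 282 and 296. Mir764 was above Mir1912 in both pups, by 1.34-fold in pup 3 (1.05 to 1.72) and 2.57-fold in pup 1 (1.93 to 3.46), so the order held while its size differed between the libraries.

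**Figure D2:**
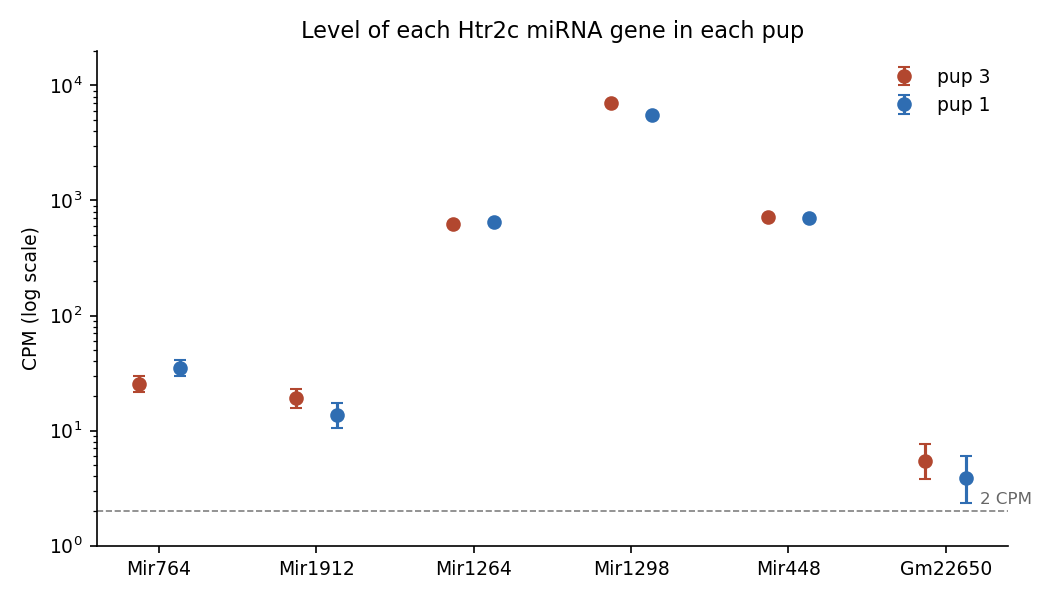
CPM (log axis) of each member, in order along Htr2c, and of Gm22650, in pup 3 (red) and pup 1 (blue); bars are exact 95% counting intervals and the dashed line is the 2 CPM detection level. The 3 tiers of level recur in both pups, with Mir1298 at 6980 and 5562 CPM and Mir1912 at 19.1 and 13.7 CPM.

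Distance along the host did not order the levels. The closest neighbours, Mir1912 and Mir1264, differed 32.9-fold in pup 3 (27.4 to 39.8) and 47.2-fold in pup 1 (37.1 to 61.1). Mir1264 and Mir448, which lie in different introns, were the pair closest in level. Within intron 2 alone the levels covered the whole 383-fold range, because both its highest and its lowest member lie there. Adapter ligation and PCR do not capture all small RNAs equally, and the part of capture in these folds was not tested.

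Together the members had 8372 CPM in pup 3 (8300 to 8443) and 6962 CPM in pup 1 (6889 to 7036). That was 0.837% of own-strand miRNA reads in pup 3 and 0.696% in pup 1. Mir1298 made up 83.4% of the member reads in pup 3 (83.1 to 83.7) and 79.9% in pup 1 (79.5 to 80.3). Mir448 made up 8.59% and Mir1264 7.50% in pup 3, against 10.1% and 9.26% in pup 1. Mir764 and Mir1912 each made up at most 0.504% in either pup. The share of Mir1298 was thus higher in pup 3 beyond counting error, and those of Mir448 and Mir1264 lower. Shares of a sum are tied to each other, and in CPM the intervals of Mir448 and of Mir1264 overlapped between the pups.

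GENCODE M21 places 2 further predicted miRNA genes, Gm22650 and Gm24627, in the same introns and on the same strand. Gm22650, 36.9 kb into the host and ahead of Mir764, had 5.45 CPM in pup 3 (34 reads, 3.77 to 7.62) and 3.87 CPM in pup 1 (19 reads, 2.33 to 6.05), so it passed the detection level. Gm24627, in intron 4 between Mir1298 and Mir448, had 0 reads in both pups, and the limit of 3 reads stands at 0.481 CPM for pup 3 and 0.611 CPM for pup 1. On the opposite strand each of the 5 members had 0 reads in both pups. Of all detected genes, 89.7% had none there.

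No member differed by 2-fold between pup 3 and pup 1, after scaling by TMM (a trimmed mean of gene ratios) and with 1 CPM added before taking log2. Of the 508 genes with 10 or more reads over both pups, 7.28% differed that much, 0.984% being higher and 6.30% lower in pup 3. With 1 library on each side no test was possible. Mir1298 was 0.47 higher in pup 3 on the log2 scale (counting SE 0.01), and Mir1912 was 0.58 higher (SE 0.21). Mir448 was 0.17 higher (SE 0.03), while Mir764 was 0.30 lower (SE 0.15). Mir1264 was 0.10 higher (SE 0.03), but 0.04 lower on library totals, a scaling that moves the median of detected genes to -0.14.

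Set against all 407 detected genes, whose median absolute log2 difference was 0.27, the members were spread over the range. A difference at least as large as that of Mir1298 was seen in 27.0% of detected genes, and one as large as that of Mir1912 in 18.2%. For Mir448 and Mir1264 the shares were 64.1% and 79.4%. In CPM, the SD of Mir448 was 1.34% of its mean and that of Mir1264 1.89%, where the median was 12.6% for 73 detected genes and 12.0% for 76 detected genes within 2-fold of their levels. Mir1298 had 16.0%, against a median of 11.2% for 50 such genes. These percentages are on library totals, and the small SDs of Mir448 and Mir1264 depended on that scaling. With TMM the SD was 57.9 CPM for Mir448 and 31.1 CPM for Mir1264, and with DESeq2 size factors it was 89.6 and 59.4 CPM. The log2 differences of the 5 members ran from -0.30 to 0.58 with a median of 0.17, against -0.01 for all detected genes.

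**Figure D3:**
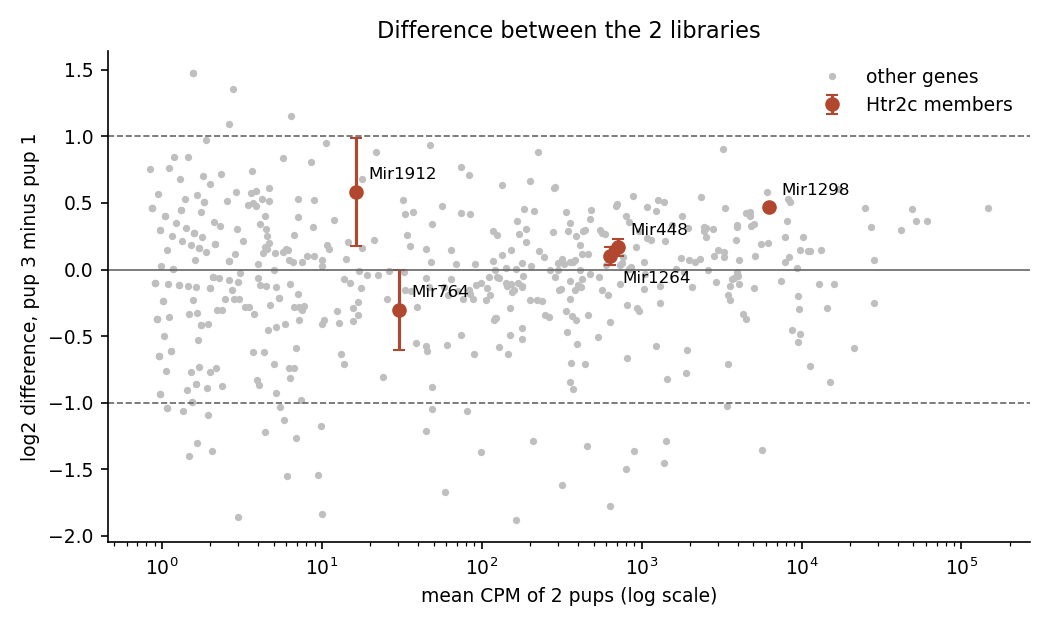
Log2 difference, pup 3 minus pup 1 after TMM scaling, against mean CPM (log axis) for the 508 tested genes; members are red with 95% counting intervals as bars, other genes grey, and dashed lines mark 2-fold. All 5 members lie inside the 2-fold lines, from -0.30 for Mir764 to 0.58 for Mir1912.

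Protein-coding hosts with 3 or more counted miRNA genes that overlap no exon of any host transcript numbered 8, and among these Htr2c had the largest sum. With both predicted genes included, its sum was 7671 CPM, followed by Sfmbt2 at 5178, Cdc20b at 4501 and Clcn5 at 3168 CPM. When genes that overlap an exon of a host transcript were also counted, a choice made after seeing the data, Htr2c stood at place 3 of 10 hosts, below Mcm7 at 10227 and Huwe1 at 7951 CPM. In 5 of the 8 hosts at least 3 genes were detected, and the fold between the highest and the lowest detected gene ran from 11.1 for Ttll10 to 1345 for Htr2c, or 383 with its 5 members alone. Cdc20b, which hosts the miR-449 genes of multiciliated cells, had 867-fold. With Gm22650 left out, Htr2c would thus stand below Cdc20b.

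Clcn5, a chloride transporter gene, is the other X-linked host of these 8 and carries 5 counted miRNA genes, all detected. Their levels were more even than those of the Htr2c members, from 1152 ± 47.5 CPM for Mir532 and 1086 ± 176 CPM for Mir188 down to 80.4 ± 45.2 CPM for Mir362. The fold between its highest and lowest gene was 14.3, and its leading gene held 36.4% of the mean sum, where Mir1298 held 81.7% of the mean sum of all 7 Htr2c genes. Mir500 and Mir501 of Clcn5 share a run of 14 bases, longer than any run between the 4 Htr2c hairpins with a sequence. The median run was 7 bases in both hosts, over 10 pairs in Clcn5 and 6 in Htr2c.

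**Figure D4:**
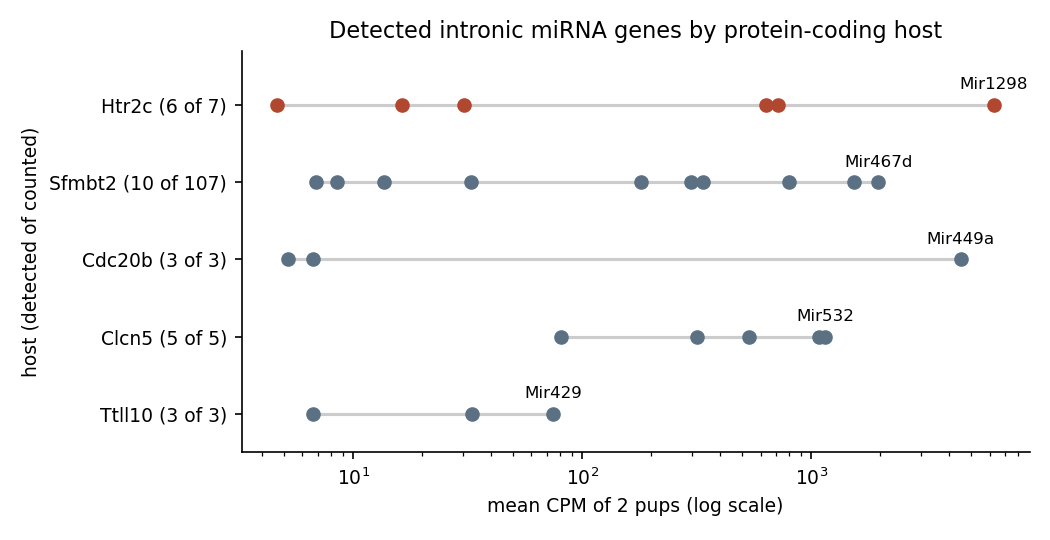
Mean CPM of 2 pups (log axis) of each detected intronic miRNA gene, by protein-coding host, for hosts with at least 3 detected genes; the label names the leading gene and brackets give detected of counted genes. Htr2c (red) runs from Gm22650 at 4.66 CPM to Mir1298 at 6271 CPM.

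Relatives by seed were looked up for each strand. Of the 8 mature strands, 1 shared bases 2 to 8 with the product of another mouse gene in the RefSeq table, 3 shared only bases 2 to 7, and 4 shared neither. Over all 1679 mature miRNAs in that table, 27.9% share bases 2 to 8 with another, counted by mature name and not by gene. With only 8 strands, a difference from that share was not tested. The relative of miR-764-3p is shown because it shares the whole seed, and those of miR-448-3p because one of them, Mir153, was abundant.
mmu-miR-153-3p: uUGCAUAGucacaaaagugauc
mmu-miR-6335: cUGCAUACacagugauauucug
mmu-miR-7062-5p: uGGAGGCCagcuuguggagugucu

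Mir153, whose product represses synaptic vesicle and synuclein genes, shares bases 2 to 7 with miR-448-3p and differs at base 8. It had 4038.5 CPM in pup 3, against 2374 CPM in pup 1, above Mir448 in both. Mir6335, with the same stretch, had 0 reads in both pups. Mir7062, which shares all of bases 2 to 8 with miR-764-3p, had 0 reads in pup 3 and 2 reads in pup 1. Mir499, of the Myh7b intron, shares bases 2 to 7 between its 3p strand and miR-448-5p and had 11.2 CPM in pup 3, against 11.0 CPM in pup 1. Gm51296, the relative of miR-1298-5p by bases 2 to 7, was not analysed here. For Mir1298, and for the 3p strands of Mir1264 and Mir1912, no relative was counted in these tables.

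The genes nearest to each member in log2(CPM + 1) over the 2 libraries were Mir381 and Mir744 for Mir1298, Mir383 and Mir338 for Mir448, and Mir384 and Mir28a for Mir1264. For Mir764 they were Mir3093 and Mir7j, and for Mir1912 Mir302c and Mir190b. The distance was between 0.0438 for Mir3093 and 0.327 for Mir190b. With 2 libraries this likeness is mostly one of level. Mir384, 0.0704 from Mir1264 at 659 CPM in pup 3, against 650 CPM in pup 1, is the one of them on chromosome X.

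The hindbrain label was checked on positional genes of the Hox clusters, and Mir10a and Mir10b were high, at 24602 and 10051 CPM in pup 3 and 32189 and 19914 CPM in pup 1. The neuronal gene Mir137 had 11340 CPM in pup 3, against 11363 CPM in pup 1. Mir124a-1 and Mir9-2, neuronal genes with near-identical copies, were low at 4.01 and 1.44 CPM in pup 3 and 14.9 and 2.45 CPM in pup 1. Further copies, named after their values were seen, averaged 462 CPM for Mir9-3, 1.70 CPM for Mir124a-2 and 2.05 CPM for Mir124a-3. Reads matching several places are left out, so the levels of such copies are uncertain. Mir126a of endothelium had 55787 CPM in pup 3, against 47819 CPM in pup 1, and the erythroid genes Mir451a and Mir144 had 258 and 27.7 CPM in pup 3 and 461 and 16.1 CPM in pup 1. Because Htr2c is abundant in choroid plexus, genes of that epithelium and of ciliated cells are given beside the members. All 7 were detected, where 20.6% of all counted miRNA genes and 403 of the 1051 with a Mir name were. Their summed level was 17212 CPM in pup 3, against 19044 CPM in pup 1. Mir204, hosted by Trpm3, led with 8349 CPM in pup 3, against 10549 CPM in pup 1, and Mir449a had 4936 CPM in pup 3, against 4042.5 CPM in pup 1. Mir34c and Mir34b had 3702.5 and 207 CPM in pup 3 and 4162 and 268 CPM in pup 1. Mir211, Mir449b and Mir449c were low, at 8.01, 4.65 and 5.61 CPM in pup 3 and 8.15, 5.71 and 7.75 CPM in pup 1. How much of the member reads came from choroid plexus was not tested, and in bulk tissue fewer cells of a type and less RNA per cell cannot be told apart.

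Of 8 miRNA genes reported to act on serotonin signalling, all 8 were detected. Of all counted miRNA genes 20.6% were, and of the 1051 with a Mir name 403 were. Their summed level was 8352 CPM in pup 3, against 10370 CPM in pup 1. Mir15a led at 3964 CPM in pup 3, against 4144 CPM in pup 1, and Mir195a had 2090 CPM in pup 3, against 2206 CPM in pup 1. Mir16-1, of the miR-16 family reported to repress the serotonin transporter in mouse raphe neurons, had 1321 CPM in pup 3, against 2489 CPM in pup 1. Mir16-2 had 241 CPM in pup 3, against 668 CPM in pup 1, and it was the 1 gene of the list that passed 2-fold, being lower in pup 3. The copies of miR-16, of miR-135a and of miR-26a share mature sequence, so reads matching several places are left out and their levels are uncertain. As counted, Mir1298 exceeded every gene of this list in both pups. Mir448 and Mir1264 lay inside the list's range of 52.9 to 3964 CPM in pup 3 and 64.0 to 4144 CPM in pup 1. The lower end of that range is Mir26a-2, so it is uncertain for the same reason. The other copy, Mir26a-1, averaged 12.4 CPM.

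**Figure D5:**
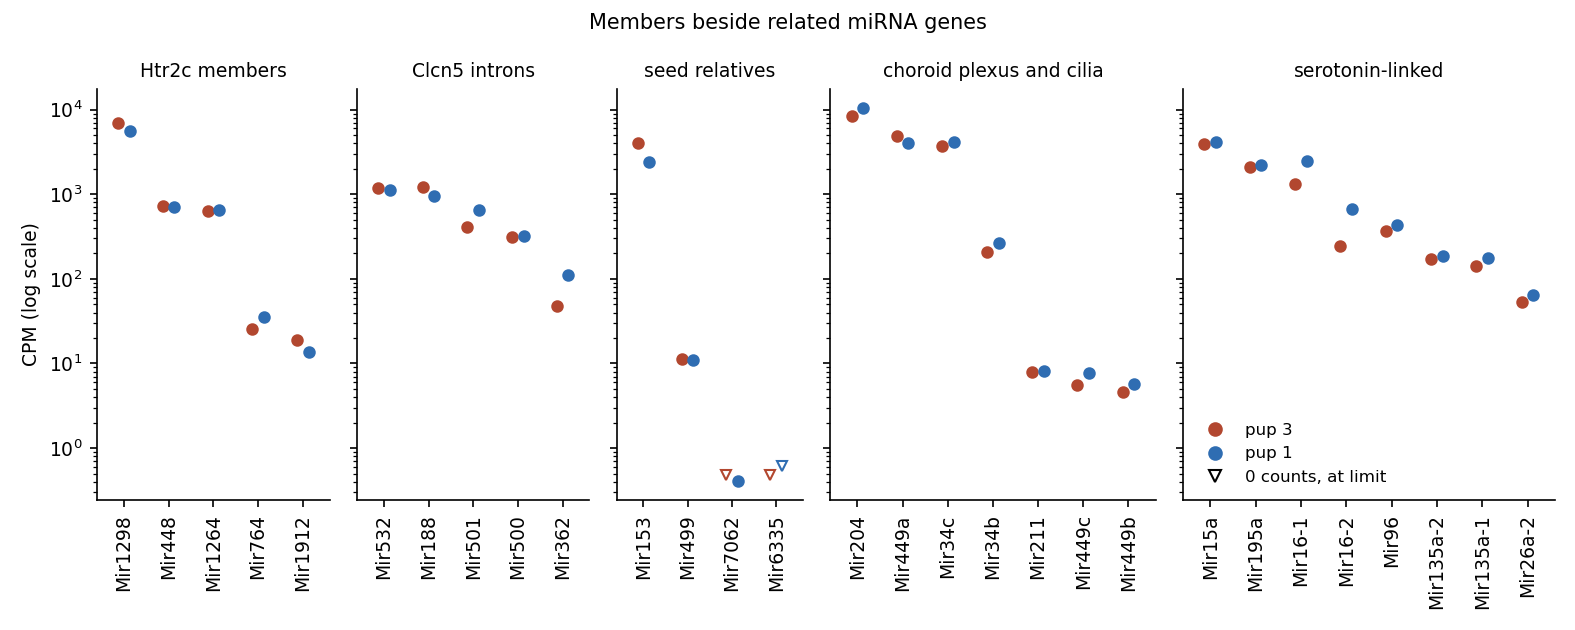
CPM (log axis) in pup 3 (red) and pup 1 (blue) of the Htr2c members, the Clcn5 genes, the seed relatives and the choroid plexus and serotonin lists, each sorted by mean; open triangles mark 0 reads, drawn at the level 3 reads would give. Mir1298, at 6980 and 5562 CPM, is exceeded here by Mir204 alone.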

How the data were processed

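For each library the authors deposited a table of raw read counts by miRNA gene, whole numbers that are neither normalized nor pooled, on assembly mm10 with annotation M4 per the text files beside the tables. No aligner or counter is named (not given in the sources used here). Column 3, reads on the gene's own strand, was used. It summed to 6238680 reads in pup 3 and 4906127 in pup 1, or 43.6% and 40.5% of the reads listed. Rows naming no gene stayed out of totals: 39.4% and 37.9% of reads matched several places, 13.9% and 17.7% were unmapped and 1.59% and 2.66% lay in no feature. Genes with identical copies are thus undercounted.

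Gene IDs were matched without version to GENCODE M21 (GRCm38, the assembly of mm10), 1894 of 1973 matching. Shares have exact Clopper-Pearson 95% intervals, and ratios of counts have exact intervals given their sum. A limit for 0 reads is 3 counts. Effective library sizes came from TMM in edgeR 4.0.16, with DESeq2 1.42.0 size factors as an alternative. The log2 difference has a pseudocount of 1 CPM, and 2-fold was the threshold. The step was tested on simulated counts with sampling noise only, so that check does not cover the larger spread between these libraries. A test for counts needs residual degrees of freedom, which 1 library a side does not leave. The libraries differed by more than sampling noise (chi-square per gene 437 over 508 genes), so they were not 1 library deposited again, although they may still share RNA or preparation.

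The members and lists were chosen with earlier results of these data known. Named genes are the members, the Clcn5 genes, both lists, the seed relatives, the tissue markers and the 2 nearest genes of each member. Gm22650 and Gm24627 lie outside that rule and were added for their place in Htr2c.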

Additional observations from a re-analysis of the deposited data

How the results depend on the processing

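All 5 members stayed detected, and none passed 2-fold, under every scaling, strand, pseudocount and detection level tried, and with either library left out for detection. With all reads listed as the denominator, the summed member level was 3232 CPM in place of 7667 CPM. With TMM, DESeq2 size factors or both strands it lay within 1 SD. Without replicate 1 or 2 in turn the sum was 6962 to 8372 CPM, the members detected 5 to 5, and the fold between highest and lowest member 366 to 407. The 37 genes past 2-fold became 17 with a pseudocount of 5 CPM and 18 among genes with 100 or more reads, fewer being tested in the second. By summed level Htr2c stood at place 1 of its host comparison, and at place 3 where exon overlap was allowed (chosen after seeing the data). On library totals Mir1264 changed sign, to -0.04. Other log2 differences of members kept their direction. No paired analysis was possible because both libraries belong to 1 group. Mir764 and Mir1912 rest on 67 to 172 reads a library, so counting error is widest there.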

Other observations

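Between the libraries, log2 differences of the Clcn5 genes covered a wider range than those of the Htr2c members, through Mir362 alone. Mir362 had 48.4 CPM in pup 3, against 112 CPM in pup 1, and its log2 difference was -1.06 on TMM scaling and -0.97 with DESeq2 size factors. Mir501 had 416 CPM in pup 3, against 649 CPM in pup 1, whereas Mir188 had 1210 CPM in pup 3, against 961 CPM in pup 1. Mir188 (log2 difference 0.47 on TMM scaling) and Mir501 (-0.50) thus moved in opposite directions between the pups inside 1 host. Mir1912 (0.58) and Mir764 (-0.30) did the same inside Htr2c. The summed level of the 5 Clcn5 genes was 3171 CPM in pup 3, against 3165 CPM in pup 1. These are single libraries and no difference was tested.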
